A study of Mus musculus with 4 samples.

Results

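The growth hormone, prolactin and IGF axis was followed through 10 genes: the receptors Ghr and Prlr, the signal transducers Stat5a and Stat5b, the feedback inhibitor Socs2, the hormone gene Igf1, and the carrier genes Igfals, Igfbp1, Igfbp2 and Igfbp3. For each gene, the CpGs in its mm10 gene body and within 10 kb on either side were taken, a span called its gene region here, and these 10 regions are part of 29228 with enough data. They held 1092 of 1600691 analysed CpGs, a CpG being analysed if each of the 4 libraries had at least 10 reads over its 2 strands, out of 1809 CpGs listed there in any library. The regions of Stat5a and Stat5b, which are neighbours, shared 151 of these CpGs, and those of Igfbp1 and Igfbp3 shared 21. The assay was reduced representation bisulfite sequencing, in which DNA cut with MspI and TaqI is converted with bisulfite so that unmethylated cytosines read as T. The DNA came from liver of C57BL6/N mice aged 6 weeks, with 2 libraries from Pnpla7-/- mice (KO) and 2 from Pnpla7+/+ mice (WT). PNPLA7 hydrolyses lysophosphatidylcholine, a step that yields glycerophosphocholine, and the comparison asks how liver DNA methylation differs in its absence. The labels do not say how the Pnpla7-/- allele was made, which sex the mice had, or whether each library stands for its own animal. The spread between libraries may therefore be technical. Apart from the permutation test below, the p-values rest on a spread between libraries that was estimated largely over many other parts of the genome.

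Growth hormone from the pituitary binds GHR on hepatocytes, the kinase JAK2 is activated, and STAT5 proteins move to the nucleus, where they switch on Igf1, Igfals and Socs2. The prolactin receptor uses the same kinase and STAT5 proteins, and SOCS2 damps the signal at the receptor. Liver is the main source of circulating IGF1, most of which travels in a complex with IGFBP3 and the acid labile subunit encoded by Igfals, while IGFBP1 and IGFBP2 bind IGF1 in smaller complexes. In mouse liver the pattern of growth hormone release differs between the sexes and sets many sex differences in gene expression. CpG-dense gene starts are as a rule unmethylated, and gene bodies are as a rule methylated, and many CpGs of intermediate level lie between them. RNA was not analysed here, and a methylation level says nothing by itself about how much a gene is transcribed.

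The depth was lowest in WT replicate 1 and close among the other libraries. Read counts summed over cytosines were 59953688 and 60535892 in KO replicates 1 and 2, and 50413170 and 59437109 in WT replicates 1 and 2. The median analysed CpG had 25 and 25 reads in KO, against 21 and 25 reads in WT. The mean level over all analysed CpGs was 45.2% ± 0.0363 in KO and 44.8% ± 0.151 in WT (SD over the 2 libraries of each genotype; exact permutation test over libraries, two-sided p = 0.333, the smallest possible here). All 59 CpGs of Pnpla7 itself with at least 10 reads in both WT libraries also had reads in KO, so the covered CpGs do not check the genotype labels. Reads on the Y chromosome made up 0.0586% and 0.033% in KO, against 0.0497% and 0.0533% in WT. Chromosome Y reads were thus present at low shares in all libraries, with the lowest share in KO replicate 2. Median reads per CpG on chromosome X, relative to autosomes, were 0.786 and 0.786 in KO, against 0.769 and 0.733 in WT. CpG-dense sites of chromosome X averaged 19% and 19.2% in KO, against 21.3% and 21% in WT. The sex of the mice was not tested. Start windows of the hepatocyte genes Apob and Fgb were below 20% in both genotypes, at 18.2% and 18.6% in KO, against 15.7% and 14.3% in WT, and that of the hepatocyte gene Serpina1a was at 75.5% in KO, against 63.9% in WT. Start windows of the leukocyte genes Adgre1 and Cd3e were mostly methylated, at 76.5% and 86% in KO, against 82% and 78.2% in WT. The other 5 hepatocyte and 4 leukocyte markers had too few analysed CpGs in their windows, and a level in liver is an average over all its cell types.

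The promoters of the axis ranged from CpG-poor to CpG-dense, and so did the number of CpGs read at them. RefSeq (GRCm38.p6, the build called mm10) gives 17 starts for 9 of the 10 genes; it gave none for Socs2. A set of 3 promoters is shown to make this range visible, as the 250 bases before the start, 5′ to 3′ on the strand of the gene, with each CpG in capitals. They are the first start of Prlr on the plus strand (chr15:10176988-10177237), the first start of Stat5b on the minus strand (chr11:100850582-100850831) and the start of Igf1 on the plus strand (chr10:87860861-87861110).
Prlr, first start: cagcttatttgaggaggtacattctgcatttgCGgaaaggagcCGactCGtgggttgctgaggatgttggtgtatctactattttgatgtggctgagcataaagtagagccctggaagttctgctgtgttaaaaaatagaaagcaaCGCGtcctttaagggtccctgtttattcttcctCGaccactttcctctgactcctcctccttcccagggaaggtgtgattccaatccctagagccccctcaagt
Stat5b, first start: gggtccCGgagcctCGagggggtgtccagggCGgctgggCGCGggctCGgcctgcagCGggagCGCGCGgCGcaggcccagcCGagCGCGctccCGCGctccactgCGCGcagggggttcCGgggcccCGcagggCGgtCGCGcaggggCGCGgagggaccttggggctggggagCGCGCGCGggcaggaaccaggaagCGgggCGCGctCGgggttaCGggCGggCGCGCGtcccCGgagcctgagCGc
Igf1, start: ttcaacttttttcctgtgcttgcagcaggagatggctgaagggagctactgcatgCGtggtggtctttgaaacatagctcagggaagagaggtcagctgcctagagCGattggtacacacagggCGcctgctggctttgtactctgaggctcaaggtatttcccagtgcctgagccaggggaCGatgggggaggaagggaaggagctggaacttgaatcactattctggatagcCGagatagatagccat
With the first 50 transcribed bases added, the Stat5b promoter held 50 CpGs, more than 99.1% of the 32817 RefSeq promoters, the Prlr promoter held 8, and the Igf1 promoter held 6, against a median of 7. The Igf1 promoter holds no MspI or TaqI site, as do 39.6% of all promoters, and no CpG within 1 kb of the Igf1 start was listed in any library.

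STAT5 binds palindromes of the form TTCNNNGAA, which reads the same way on both strands. The letters occurred in 3 of the 17 member promoters of 300 bases, at 2 starts of Igfals and at the second start of Prlr, and in 8.29% of all RefSeq promoters. The Igfals promoters are shown because Igfals is a known target of growth hormone signalling in liver; the 9 letters of the match are in capitals, on the plus strand, for the first start (chr17:24877594-24877843) and the second start (chr17:24877981-24878230).
Igfals, first start: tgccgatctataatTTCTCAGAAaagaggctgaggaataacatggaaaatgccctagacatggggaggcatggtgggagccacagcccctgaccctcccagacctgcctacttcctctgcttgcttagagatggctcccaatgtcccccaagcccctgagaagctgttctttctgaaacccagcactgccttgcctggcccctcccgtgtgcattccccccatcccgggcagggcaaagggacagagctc
Igfals, second start: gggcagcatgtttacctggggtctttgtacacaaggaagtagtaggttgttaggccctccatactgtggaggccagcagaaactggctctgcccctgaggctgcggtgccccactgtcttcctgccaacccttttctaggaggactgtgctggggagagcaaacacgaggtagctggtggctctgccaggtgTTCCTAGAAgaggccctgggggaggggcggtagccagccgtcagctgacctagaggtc
The match begins 236 bases before the first start and 58 bases before the second. A match describes the letters only, and binding was not measured.

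The starts of these genes were weakly methylated in KO and in WT alike, and no start passed the test for a difference. Of the 17 RefSeq starts, 13 had at least 3 analysed CpGs within 1 kb on either side, and all 13 averaged below 20% methylation, as did 75.5% of all RefSeq starts with data. None of the 13 passed the test, a moderated quasi-binomial model of the reads with Benjamini-Hochberg adjustment over all starts; a start was called at adjusted p under 0.05 if the levels also differed by 10 percentage points or more. Calls were made at 0.00535% of all RefSeq starts, so 0 of 13 is near the background. In these 13 windows no unadjusted p was under 0.05, against 5.59% of all starts; the smallest was 0.0618, at the first start of Igfbp2. Windows were also centred on the annotated start of each gene, or for Socs2 on its CpG-richer end. There 9 of 10 genes had data and none was called, against a background of 0.0207%. None had an unadjusted p under 0.05 (moderated quasi-binomial model), against 5.73%.

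**Figure D1:**
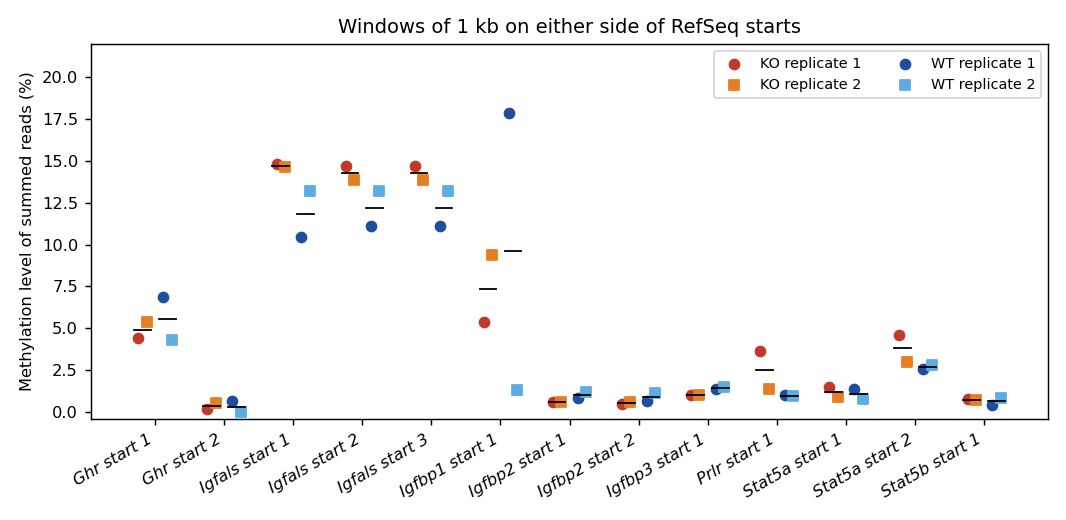
Methylation level (percent of reads methylated, summed over analysed CpGs within 1 kb of each RefSeq start) in each of the 4 libraries, with a line at the mean of each genotype. Starts are numbered in the direction of transcription, and all 13 windows stay below 20%; the Igfbp1 window spreads most, from 17.9% in WT replicate 1 to 1.33% in WT replicate 2.

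Among single starts, that of the receptor gene Ghr furthest upstream was methylated at 4.43% and 5.37% in KO, against 6.85% and 4.31% in WT. The libraries overlapped there. The first start of Prlr stood at 3.66% and 1.39% in KO, against 0.99% and 0.952% in WT. Its read counts were 210 to 303 per library, summed over CpGs so that a read over several CpGs counts at each. The KO libraries were the higher ones, by 1.56 points on average, and the test did not separate them (adjusted p = 0.905, moderated quasi-binomial model). The first start of Stat5b, the STAT5 form that carries most of the growth hormone signal in liver, was read at 114 CpGs and stood at 0.751% and 0.699% in KO, against 0.421% and 0.837% in WT. The start of Igfbp3, at 97 CpGs, stood at 0.979% and 0.982% in KO, against 1.36% and 1.47% in WT. Both KO libraries were below both WT libraries at Igfbp3, by less than 1 point. The first start of Igfals, with 4 CpGs, was the highest at 14.8% and 14.6% in KO, against 10.4% and 13.2% in WT. The start of Igfbp1 had 3 CpGs and summed read counts of 56 to 112 per library. It stood at 5.36% and 9.38% in KO, against 17.9% and 1.33% in WT. The WT libraries therefore lay on either side of both KO libraries. For Socs2, with no RefSeq start, the window at its CpG-richer end held 83 CpGs at 0.581% and 0.457% in KO, against 0.905% and 0.285% in WT.

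The annotated end of Stat5b on the side of its start lies further upstream than its first RefSeq start, and the 3 CpGs analysed there stood at 52.8% and 51.2% in KO, against 44.2% and 41.4% in WT. This was the one window of intermediate level among the 10 genes, and it was not called (difference 9.21 points, adjusted p = 0.928, moderated quasi-binomial model). It also spans the first RefSeq start of the neighbour Stat5a, so it is not a window of Stat5b alone. Of the start windows of 29 other pathway genes, those nearest to it in level over the 4 libraries were Ptpn1, encoding a tyrosine phosphatase that acts on JAK2, at a root mean square distance of 7.02 points, and Ghrh, encoding the hypothalamic hormone that releases growth hormone, at 19.8 points.

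Averaged over the analysed CpGs of the gene region, each counted once, the 10 genes ranged from weakly methylated Igfbp3 to highly methylated Igf1. These levels depend on which CpGs were read. All 27 CpGs of Igf1 lay in the gene body, while 67 of the 133 CpGs of Igfbp3 lay in the 1-kb tile that holds its start. Mean levels ran from 9.35% in KO and 9.66% in WT at Igfbp3 to 84.6% in KO and 81.2% in WT at Igf1. No region passed the test (limma on mean CpG levels, adjusted p under 0.05 over all regions), against 0.0103% of all regions, which were Zc3h12d, Tm6sf2 and Hapln4. Both KO libraries lay above both WT libraries at Prlr, Igf1 and Igfals, 3 of 10 against 24.9% of all regions, and below them at Igfbp1 and Igfbp2, 2 of 10 against 13.6%. An unadjusted p under 0.05 was found at Prlr, Igfals and Igf1, 3 of 10 against 8.68% of all regions. The median difference was 0.0513 points over the 10 genes and 0.195 points over all regions, and both lie near 0.

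**Figure D2:**
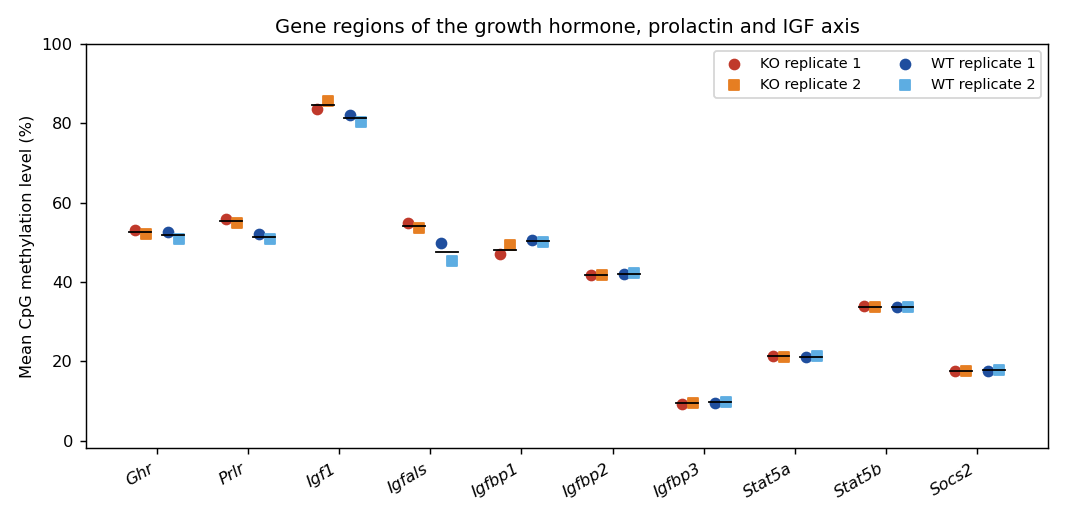
Mean methylation level over the analysed CpGs of each gene region (percent, gene body with 10 kb on either side) in each library, with a line at the mean of each genotype. KO and WT points nearly coincide at Igfbp2, Igfbp3, Stat5a, Stat5b and Socs2, and the widest gap is at Igfals, with 54.9% and 53.5% in KO, against 49.9% and 45.2% in WT.

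Reads were also summed over tiles of 1 kb with at least 3 analysed CpGs, and 1 tile passed the test, in Prlr. The gene regions held 95 tiles, of which 94 could be tested; calls were made at 0.0788% of all tiles, 0.0611% being higher in KO and 0.0177% lower. A single call among 94 is too few to say that the axis differs from the rest of the genome. Both KO libraries lay above both WT libraries in 21 tiles, against 19.5% of all tiles, and below them in 16, against 14.9%, while the other 58 overlapped. An unadjusted p under 0.05 was found in 12 of the tiles, against 5.78% of all. Many of these 12 lie in the single region of Igfals, so they are not spread evenly over the axis. The tiles split into 45 with a mean level above 80%, 21 of intermediate level and 29 below 20%. Differences in the intermediate class ran from -17.3 to 18.4 points, wider than the range from -5.74 to 9.47 points in the highly methylated class and from -2.74 to 6.66 points in the weakly methylated class. Of the weakly methylated tiles 18 lay within 1 kb of a RefSeq start, and of the intermediate tiles 3.

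**Figure D3:**
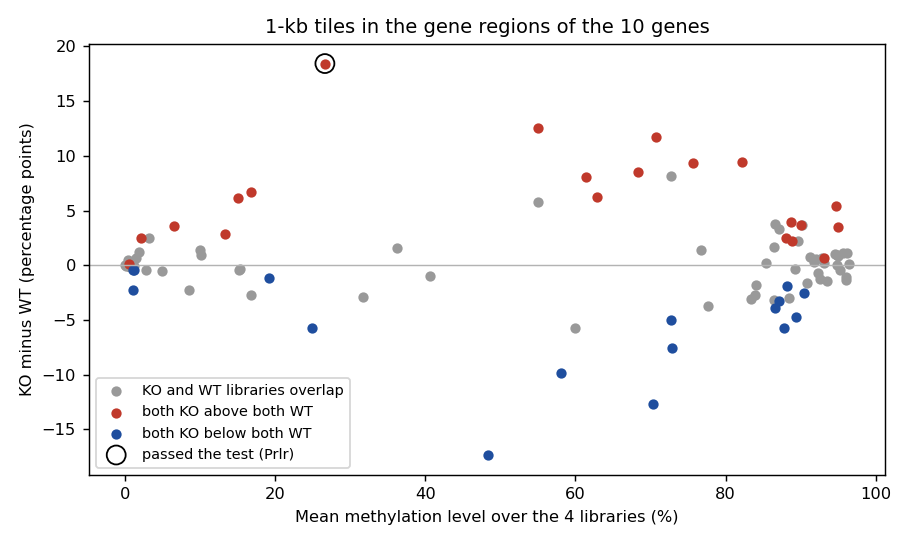
Difference in methylation level between KO and WT (percentage points, KO minus WT) against the mean level over the 4 libraries (percent) for each 1-kb tile of the 10 gene regions. Red points have both KO libraries above both WT libraries, blue points both below, and grey points overlap; the circled Prlr tile at 18.4 points is the one that passed the test, and the lowest point, at -17.3 points, is in Igfbp2.

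Prlr, the receptor for prolactin, carried more methylation in KO in a short stretch inside the gene, downstream of its first start. The tile at chr15:10178001-10179000, on the plus strand, holds 14 analysed CpGs that lie 851 to 1740 bp downstream of the first RefSeq start. It was methylated at 33.5% and 38.2% in KO, against 18.9% and 15.9% in WT. Read counts summed over the 14 CpGs were 391 to 541 per library. A read over several CpGs counts at each of them, so there were fewer separate reads. The KO libraries were well above the WT libraries, with means of 35.8% ± 3.29 in KO and 17.4% ± 2.14 in WT (SD, n = 2 each). The difference of 18.4 points passed the test (adjusted p = 0.000624, moderated quasi-binomial model) and ranked 16 by p among all tested tiles. In the tile just upstream, which holds the start itself, levels were 3.65% and 1.27% in KO, against 1.18% and 1.27% in WT, and the libraries overlapped.

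The difference sat in the last part of the tile, where methylation climbs from the unmethylated start towards the methylated gene body. In the upstream 500 bp of the tile, 5 CpGs stood at 2.82% and 1.53% in KO, against 0.709% and 0.645% in WT, and in the downstream 500 bp 9 CpGs stood at 44.8% and 50% in KO, against 29.2% and 22% in WT (difference 21.8 points, adjusted p = 0.00408). The climb therefore reached a higher level in KO before the end of the tile. At single CpGs, calls were made at 0.0266% of all tested CpGs, 0.0224% being higher in KO, and 2 of 824 tested CpGs of the axis were called, both here. The CpG 1670 bp downstream of the start (position 10178908) stood at 69% and 65.4% in KO, against 27.9% and 27.3% in WT (adjusted p = 0.000961). The CpG 1699 bp downstream (position 10178937) stood at 75.5% and 75% in KO, against 28.6% and 34.1% in WT (adjusted p = 0.000526). In both, the KO libraries lay close together at more than double the level of the WT libraries, on 35 to 78 reads. The CpG 1740 bp downstream followed with 91.4% and 86.1% in KO, against 54.8% and 54.5% in WT, and did not pass (adjusted p = 0.0799). By 3190 bp downstream the KO libraries were at 94.4% and 90%, against 78.6% and 80% in WT, and at the next CpG the libraries overlapped.

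**Figure D4:**
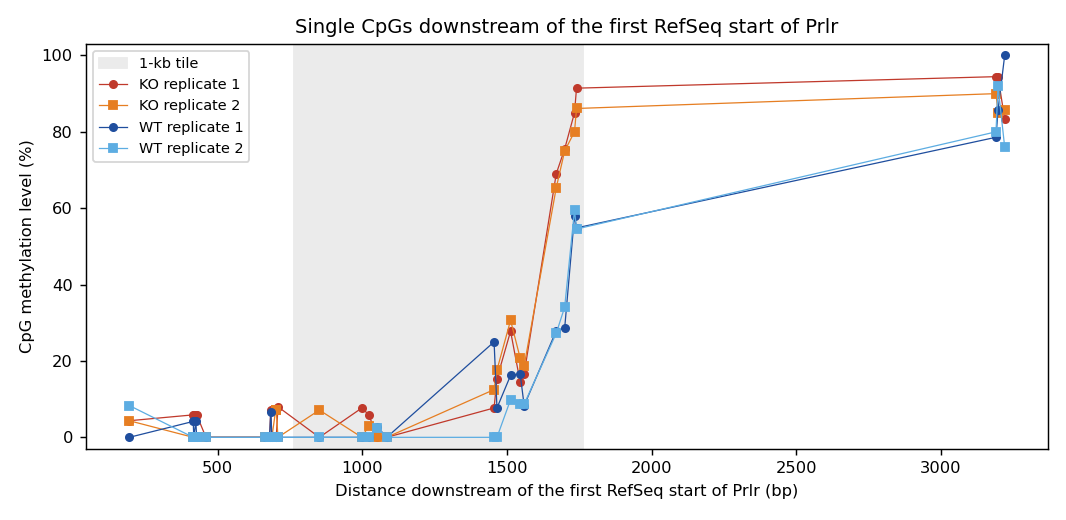
Methylation level (percent) of each analysed CpG downstream of the first RefSeq start of Prlr, by distance in bp, with a line for each library and the 1-kb tile shaded. The 4 libraries run together near 0% up to about the middle of the shaded tile and part near its downstream edge, where the KO lines reach 69% and 65.4% at 1670 bp, against 27.9% and 27.3% in WT.

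Of the 14 CpGs, 8 had both KO libraries above both WT libraries and 1 had both below. The counts over all 1600691 analysed CpGs were 184069 and 160355. An unadjusted p under 0.05 was found at 7 of the 14 (moderated quasi-binomial model), against 4.79% of all tested CpGs. The tile was singled out by its test on the same reads, so these counts describe it and add no support to its call. Neighbouring CpGs can lie on the same reads, so they are not separate observations. Without both called CpGs the tile still differed, with 25.4% and 27.8% in KO, against 16.6% and 12.7% in WT (adjusted p = 0.038). With 1 library left out the tile was called each time, at 16.1 to 20.8 points. The lone library of a genotype is then assumed to vary like the others, and calls over all tiles numbered 114 to 283, against 129 with all libraries, so these repeats are a weak check. No CpG in the genome was called with 1 library left out. The tile was not called on unweighted CpG levels (13.7 points, adjusted p = 0.178) or on log2 ratios (adjusted p = 0.894), both with limma, and the 2 CpGs were not called when the spread was estimated from all CpGs (adjusted p = 0.743). In liver DNA, a different share of cell types and a different level within a cell type cannot be told apart. Tiles of hepatocyte markers were higher in both KO libraries in 12 of 34 and lower in 6, against 19.5% and 14.9% of all tiles, with a median difference of 2.91 points, against 0.177 points over all tiles. The hepatocyte tile with the smallest p, in Tat, averaged 59.2% ± 4.01 in KO and 42.1% ± 4.79 in WT, and was not called (adjusted p = 0.14, moderated quasi-binomial model). Both KO libraries were higher in 3 of 21 leukocyte tiles and lower in 0, higher in 6 of 27 cholangiocyte tiles and lower in 8, and higher in 10 of 38 endothelial and stromal tiles and lower in 6. Of the 4 cholangiocyte start windows, both KO libraries were lower in 2 and higher in 0. Of the 3 hepatocyte start windows, they were higher in 1 and lower in 0. The 2 leukocyte windows and the 2 endothelial and stromal windows overlapped between genotypes. The share over all start windows is not given here, so these small counts are a description only. No tile or start window of the marker lists was called, and the part of cell makeup in the Prlr result was not tested. The whole Prlr region (chr15:10167238-10359190) averaged 55.8% and 54.8% in KO, against 52% and 50.8% in WT, and did not pass the test (difference 3.92 ± 0.719 points, SE; adjusted p = 0.359, limma).

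Ghr, the growth hormone receptor, had no region, start or tile that passed. Its region (chr15:3307755-3593352, minus strand) averaged 53% and 52% in KO, against 52.5% and 50.9% in WT, with overlapping libraries (adjusted p = 0.858, limma). Of its 6 tiles, 1 had both KO libraries higher and none had both lower, against 19.5% and 14.9% of all tiles. The tile with the smallest p, at chr15:3506001-3507000, averaged 76.9% ± 7.51 in KO and 68.7% ± 7.49 in WT and overlapped between genotypes. The windows of both Ghr starts stayed below 10% in all libraries.

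The transducers Stat5a and Stat5b and the feedback inhibitor Socs2 had region levels within 1 point of each other in all 4 libraries. Stat5a (chr11:100849351-100895169, plus strand) averaged 21.4% and 21.1% in KO, against 21% and 21.3% in WT. Stat5b (chr11:100770731-100869004, minus strand) averaged 33.8% and 33.6% in KO, against 33.7% and 33.8% in WT. Socs2 (chr10:95373903-95427321) averaged 17.6% and 17.5% in KO, against 17.6% and 17.7% in WT. Differences of the 3 genes were 0.115, -0.0125 and -0.104 points in that order, smaller than their standard errors of 0.353, 0.316 and 0.325 points. None of their 9, 22 and 14 tiles was called. The lowest p among Socs2 tiles came from chr10:95389001-95390000 inside the gene, with 58.5% and 69.4% in KO, against 79.4% and 73.9% in WT (difference -12.6 points, adjusted p = 0.627). Both KO libraries lay below both WT libraries there, but the KO libraries differed from each other by almost as much as the genotypes did. A CpG in Socs2, at position 95414681, had no methylated read in either KO library, against 10.8% and 9.09% in WT, (adjusted p = 0.762, moderated quasi-binomial model). On 44 and 27 reads, a count of 0 in KO allows up to 6.82% and 11.1%, and the second limit alone reaches the WT values.

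Igf1, which encodes the hormone itself, was covered thinly and only inside the gene. The region (chr10:87848265-87947047, plus strand) had 27 analysed CpGs, all in the gene body, and averaged 83.7% and 85.5% in KO, against 82% and 80.4% in WT. Each KO library was above both WT libraries, by 3.36 ± 1.33 points (SE), and the difference did not pass (adjusted p = 0.557, limma). Its 4 tiles were all highly methylated; the one with the smallest p, chr10:87875001-87876000, stood at 89.7% and 90.2% in KO, against 86.9% and 88.5% in WT. The start of Igf1 was not read, so its methylation is not described here.

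Igfals, which encodes the acid labile subunit that keeps IGF1 in the circulation, had the largest region difference of the 10 genes, and 1 WT library carried much of it. The region (chr17:24867844-24892011, plus strand) averaged 54.9% and 53.5% in KO, against 49.9% and 45.2% in WT, a difference of 6.69 ± 1.45 points (SE; adjusted p = 0.393, limma). Of its 115 CpGs, 39 had both KO libraries above both WT libraries and 3 had both below. The counts over all 1600691 analysed CpGs were 184069 and 160355. Neighbouring CpGs can lie on the same reads, so the 115 are not separate observations. Both KO libraries were higher in 7 of its 11 tiles and lower in none, against 19.5% and 14.9% of all tiles. Some of these 7 lie in the flanks, over the neighbouring genes Gm41549 and Spsb3, so they are not tiles of Igfals alone. The tile chr17:24892001-24893000 also reaches past the end of the region. The 76 CpGs of the flanks averaged 43.1% and 43.5% in KO, against 40.3% and 39.3% in WT. Within the gene body the mean over 39 CpGs was 77.8% and 73.2% in KO, against 68.5% and 56.5% in WT, so WT replicate 2 lay furthest from the rest.

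The tile of Igfals with the smallest p, chr17:24881001-24882000 near the end of the gene, holds 29 analysed CpGs. It was methylated at 78.5% and 74.6% in KO, against 72.3% and 57.3% in WT. The means were 76.6% ± 2.73 in KO and 64.8% ± 10.6 in WT (SD, n = 2 each), so the WT libraries differed from each other more than the genotypes did. The difference of 11.8 points did not pass the test (adjusted p = 0.0999, moderated quasi-binomial model). With 1 library left out it did not pass without WT replicate 2 (4.25 points, adjusted p = 0.975) or without KO replicate 1 (9.84 points, adjusted p = 0.0958). It passed without KO replicate 2 (13.7 points, adjusted p = 0.00132) and without WT replicate 1 (19.3 points, adjusted p = 5.35e-07), and in the last case a neighbouring tile, chr17:24880001-24881000, was also called (16.9 points, adjusted p = 0.0308). Of the 29 CpGs, 17 had both KO libraries above both WT libraries, against 11.5% of all analysed CpGs. An unadjusted p under 0.05 was found at 12 of them (moderated quasi-binomial model), against 4.79% of all tested CpGs. This tile was picked for its small p, so these counts describe it and are no further support. Here too, neighbouring CpGs can lie on the same reads. The CpG 2757 bp downstream of the nearest RefSeq start (position 24881504) differed most, with 77.8% and 71.4% in KO, against 23.1% and 31.6% in WT, and was not called (adjusted p = 0.114, moderated quasi-binomial model).

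**Figure D5:**
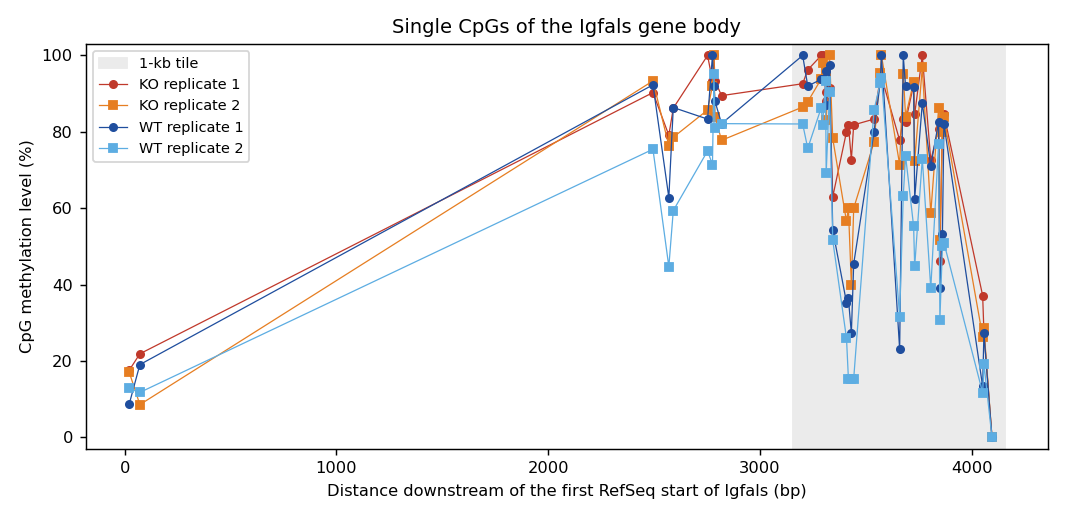
Methylation level (percent) of each analysed CpG in the Igfals gene body, by distance in bp from the first RefSeq start, with a line for each library and the 1-kb tile shaded. Levels are low at the start and high and uneven further on, and the WT replicate 2 line is the lowest over much of the tile, which averages 78.5% and 74.6% in KO, against 72.3% and 57.3% in WT.

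None of the binding protein genes had a region, start or tile that passed the test. Igfbp1 (chr11:7187787-7212546, plus strand), whose product is induced in liver by fasting, averaged 47.1% and 49.2% in KO, against 50.6% and 50.1% in WT (difference -2.18 points, adjusted p = 0.639, limma). The KO libraries were the lower ones, as they were in 4 of its 8 tiles, with none higher, against 14.9% of all tiles lower and 19.5% higher. The Igfbp1 tile with the smallest p, chr11:7190001-7191000 upstream of the gene, stood at 50% and 56.4% in KO, against 65.1% and 60.9% in WT (adjusted p = 0.905, moderated quasi-binomial model). Igfbp3 (chr11:7196086-7225498, minus strand), encoding the main carrier of IGF1 in blood, was the least methylated region, at 9.12% and 9.58% in KO, against 9.5% and 9.81% in WT, and 88% of its 133 CpGs had a mean level below 20%. The tile of Igfbp3 with the smallest p, chr11:7215001-7216000, lies upstream of its RefSeq start and stood at 16% and 20.4% in KO, against 12.6% and 11.4% in WT (adjusted p = 0.879).

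Igfbp2 (chr1:72814480-72862474, plus strand), which encodes another carrier of IGF1, averaged 41.6% and 41.7% in KO, against 41.9% and 42.3% in WT (adjusted p = 0.832, limma). It held the largest drop among the tiles of the axis, which did not pass. At chr1:72827001-72828000, in the gene, 3 CpGs stood at 45.7% and 33.7% in KO, against 52.8% and 61.2% in WT (difference -17.3 points, adjusted p = 0.745, moderated quasi-binomial model). The smallest p in Igfbp2 came from chr1:72825001-72826000, which lies downstream of its first RefSeq start and spans its second, where 10 CpGs had no methylated read in either KO library, against 3.8% and 0.707% in WT (adjusted p = 0.568, moderated quasi-binomial model). A count of 0 on 212 and 342 reads summed over the 10 CpGs would allow up to 1.42% and 0.877% in KO if these counts were independent. The CpGs lie close together and can share reads, so the real limits are higher. The second WT library lies within even the stated limits, and whether the first lies above the real ones was not tested. Both differences were in the direction of lower methylation in KO, unlike Prlr, and rest on few CpGs. Downstream of the gene a CpG at position 72858480 stood at 82.5% and 88.9% in KO, against 94.6% and 98.2% in WT (adjusted p = 0.762).

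Among genes that act around the axis, 1 tile in each of 2 lists was called, too few to set against the background. In 31 other genes of the pathway, from JAK2 and the SOCS proteins to the IGF1 receptor and further binding proteins, 1 of 414 tiles was called, 0 of 28 tested start windows and 0 of 31 regions, against 0.0788%, 0.0207% and 0.0103% of all such features. The called tile lies in Onecut1, which encodes a liver transcription factor that responds to growth hormone (chr9:74868001-74869000), and stood at 26.5% and 20.3% in KO, against 13.9% and 11.6% in WT (difference 10.7 points, adjusted p = 0.0218, moderated quasi-binomial model). Both KO libraries were higher in 85 of these tiles and lower in 69, near the shares of 19.5% and 14.9% over all tiles, with a median difference of 0.224 points, against 0.177 points over all tiles. In 23 liver genes that respond to growth hormone, 1 of 143 tiles was called, 0 of 11 start windows and 0 of 19 regions, against the same shares. That tile lies in Esr1, which encodes oestrogen receptor alpha (chr10:4621001-4622000), and stood at 62.2% and 48.6% in KO, against 33.1% and 31.6% in WT (difference 23.1 points, adjusted p = 0.00211, moderated quasi-binomial model). Both KO libraries were above both WT libraries in Onecut1 and in Esr1, and the 2 KO libraries were further apart than the 2 WT libraries. The Onecut1 tile was not called without KO replicate 1 (7.6 points, adjusted p = 0.116), without WT replicate 2 (9.49 points, adjusted p = 0.338) or at a minimum of 20 reads (adjusted p = 0.108), while the Esr1 tile was called with any library left out (16.3 to 29.8 points). Both calls were lost with limma on log2 ratios or on unweighted CpG levels.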

How the data were processed

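Bisulfite libraries were made from DNA digested by TaqI and MspI and were amplified, per the labels' protocols. The authors deposited, for each library, a track of methylation levels as a fraction and a track of read coverage on mm10, per the file headers, which name the program GBSA; the sign marks the strand. BWA 0.7.12 and MACS are named in the submitters' processing notes, their role and further steps being not given in the sources used here. Methylated reads were recovered as level times coverage, whole within 1e-06 at 100% of positions. Strands were summed, and a CpG was kept if each library had 10 reads or more. All 247082 CpGs listed inside RefSeq promoters read CG there (100%), so positions and build match.

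Tiles of 1 kb and windows needed 3 CpGs, and gene regions 5. Reads were tested with a moderated quasi-binomial model, genotype only, whose Pearson dispersion was shrunk with limma 3.58.1 (squeezeVar) and held at 1 or above. The prior for the spread came from features whose binomial variance reached 5 reads in each library (2 for CpGs), two-sided F tests followed, and adjustment was by Benjamini-Hochberg over all features. The prior weighed as 20 degrees of freedom at tiles and as 178 at CpGs, so both sets of p-values rest mostly on a spread shared over the genome. At CpGs they reflect read numbers more than the spread at the CpG. Gene regions were tested with limma, with a trend on log2 CpG number. The quasi-binomial model was tried on simulated tiles and limma on simulated gene regions, with results not given here. Start windows and single CpGs were not simulated. Amplified reads are not independent molecules, so depth bounds counting error only. R 4.3.3, the data.table package 1.17.8, pandas 2.3.3 and matplotlib 3.10.9 were used.

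For each gene the text names its region, its start window and the tile with the smallest p or the lowest level; every called tile and CpG is named, with the 2 CpGs of smallest p each way. Genes outside the axis are named where called, with those nearest in level to a start of intermediate level. The members, lists and this rule were chosen with earlier results of these data known. Other CpGs, and Pnpla7 values, were named after their values were seen. Exons, introns and sequence inside genes were not analysed here. Alternatives were other coverage minimums, sizes of difference, tests, priors, tile and window sizes, a replicate block, and each library left out in turn.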

Additional observations from a re-analysis of the deposited data

How the results depend on the processing

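The Prlr tile was called under each change of coverage minimum, prior, tile size or library tried, and under the replicate block. It was not called, so that 0 tiles of the axis were, with a minimum of 20 points, with limma on log2 ratios or with limma on unweighted CpG levels; all tiles called then numbered 64, 0 and 7, against 129. Leaving out 1 library gave 1 to 3 called tiles in the axis, and up to 283 in all, and coverage of 20 gave 77 in all. The replicate numbers do not pair the libraries (correlation of deviations -0.00844 over tiles, -0.0325 over gene regions); with the replicate block 2 tiles of the axis were called, the Igfals tile with adjusted p = 6.67e-07, and 341 in all. The 2 Prlr CpGs fell to 0 with the prior from all CpGs (9 called in all), and ranged from 0 to 0 when 1 library was left out, where the prior fell to between 3.93 and 4.58 degrees of freedom. No start window or gene region of the axis was called under any alternative; in all, start windows called numbered from 0 to 22, against 4, and regions from 0 to 5, against 3. The mean level over all CpGs differed by 0.171 points at coverage of 20 and by -0.725 points with all reads summed, against 0.337; the cause was not tested. Moved tiles, RefSeq starts, the tile without its called CpGs and both settings of the mean level were chosen after seeing the data.

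Differences near 0 changed sign in places, none of them called. With windows of 500 bp, Ghr gave 0.303 and Socs2 0.0273 points; with 1 library left out, start windows ranged from -0.342 to 1.09 points for Stat5a (negative without KO replicate 1, and -0.0867 without WT replicate 2), from -1.95 to 0.589 for Ghr, from -10.5 to 6.03 for Igfbp1 and from -0.386 to 0.234 for Socs2, the last 3 being positive without WT replicate 1. Gene regions gave -0.23 for Ghr, -0.227 for Stat5a and 0.117 for Stat5b at coverage of 5, and -0.177 for Stat5a and 0.51 for Stat5b at coverage of 20. Summed reads gave -4.11 for Ghr and 0.118 for Igfbp3. With 1 library left out, regions ranged from -0.0533 to 0.283 for Stat5a, from -0.105 to 0.0800 for Stat5b and from -0.0155 to 1.55 for Ghr. Few CpGs were listed at some starts, 0 at Igf1 and the third Prlr start and 3 at Igfbp1, whereas at the first Prlr start 36 were listed and 15 had the depth to be analysed.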
